A study of Mus musculus with 22 samples.

Results

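The comparison covers 5 mouse bladders in which 1 Trp53 allele had been switched to R270H, set apart by the cell layer in which the switch was made. In 3 of them the inducible recombinase was driven from the Krt5 promoter, which is active in basal urothelial cells, and in 2 from the Upk2 promoter, which is active in luminal cells. These 5 arrays, taken by their titles, are 5 of 22 in the series. The genotypes were Krt5-CreERT2; LSL-RFP; Trp53R270H/+ and Upk2-CreERT2; LSL-RFP; Trp53R270H/+. In both, the second Trp53 allele was wild type, tamoxifen had been given, and N-butyl-N-(4-hydroxybutyl)nitrosamine (BBN), a bladder carcinogen, was in the drinking water for 24 weeks before RNA was taken from whole bladders at 8 months of age. LSL-RFP is a red fluorescent reporter that the same recombinase switches on. Krt5-CreERT2 replicate 1 was labelled female and the other 4 mice male. Levels of RNA were read on one-colour Agilent arrays, 1 array per bladder, and are given below as log2 of the spot brightness relative to the 75th percentile of the same array (a value of 0 means as bright as that percentile).

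The other groups used for comparison also received tamoxifen and BBN for 24 weeks and were 8 months old. They carried the R172H allele in the same heterozygous state (4 Krt5-CreERT2 and 3 Upk2-CreERT2 bladders), or no mutant allele at all (Krt5-CreERT2; LSL-RFP and Upk2-CreERT2; LSL-RFP, 2 bladders each). The 2 Upk2-CreERT2 arrays without a mutant allele are labelled female, carry the same animal code and may come from 1 mouse. The other groups named here held both sexes. The fit that gave the SE and p values also took in arrays titled Trp53+/- and normal urothelium, both at 8 months. The Trp53+/- arrays were labelled male and had BBN for 24 weeks, and 2 of them share an animal code. Normal urothelium was labelled female and had no BBN. The titles number the samples, and the animal codes of the 5 R270H bladders all differ. RNA came from the whole bladder, so recombined cells were only a share of it, the array does not tell the 2 Trp53 alleles apart, and fewer cells of a type cannot be told apart from less RNA per cell.

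Urothelium is layered. Basal cells, which make keratins 5 and 14 and the p53 relative p63, sit on the basement membrane and renew the tissue. Superficial luminal cells make the uroplakins, which form the plaques that seal the bladder surface. The p53 protein is a transcription factor that turns on genes of cell cycle arrest, cell death and DNA repair. R270H replaces an amino acid that touches DNA, whereas R172H changes the fold of the DNA-binding domain. The study asked what the same mutation does when it starts in 1 layer or the other.

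On the 5 arrays 47.7% to 57.2% of spots were well above background and none was saturated. Krt5-CreERT2 replicates 1 and 2 were hybridised on slide 1, while Krt5-CreERT2 replicate 3 and both Upk2-CreERT2 arrays shared slide 2. Slide 2 therefore holds the only driver comparison without a change of slide, 1 array against 2, and its value is printed below as the slide 2 difference, with no test of its own. The RNA of Xist was above background only on the array labelled female, and the Y-linked genes Ddx3y, Eif2s3y and Kdm5d were above background on the other 4. Across the 17404 genes tested, the 3 Krt5-CreERT2 arrays correlated with each other at 0.899 to 0.926, the Upk2-CreERT2 pair at 0.949, and arrays of different drivers at 0.919 to 0.949, across genes that are not independent replicates. The profiles of the 3 Krt5-CreERT2 bladders were thus no more alike than profiles across drivers. The median SD of a gene was 0.68 over the Krt5-CreERT2 arrays and 0.35 over the Upk2-CreERT2 arrays. These SDs are not like for like. The first covers 3 arrays, 2 slides and both sex labels, and the second 2 arrays of 1 slide, both labelled male.

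No gene passed the threshold between the drivers. With limma and Benjamini-Hochberg adjustment over 17404 genes, 0 genes were called higher with Krt5-CreERT2 (0% of those tested) and 0 were called higher with Upk2-CreERT2 (0%). The smallest adjusted p was 0.999. At an unadjusted limma p under 0.05 there were 393 genes on the Krt5-CreERT2 side (2.26%) and 296 on the Upk2-CreERT2 side (1.7%). The difference of the means was above 0 in 53.9% of genes, with a median over all genes of 0.05. A typical 95% confidence interval reached 1.05 either side of its difference on the log2 scale. With this number of arrays, and in this fit without a term for slide, 2-fold differences were thus mostly not detectable.

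Counted by array instead, 406 genes (2.33% of those tested) had all 3 Krt5-CreERT2 arrays above both Upk2-CreERT2 arrays with means at least 2-fold apart, and 316 genes (1.82%) had the reverse. These counts are descriptions without a test. The brighter group was above background on all its arrays for 222 of the 406 and for 264 of the 316. The genes of smallest p in each direction, all of which missed the threshold, are described next. Their differences were the largest relative to the spread that the fit estimated over all 22 arrays. Only genes above background throughout the brighter group and without a clone or predicted name were taken.

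Ifitm3, an interferon-induced membrane protein that blocks virus entry, was the brightest gene among the 10 of smallest p on the Krt5-CreERT2 side. It read 7.12, 6.62 and 6.57 on Krt5-CreERT2 replicates 1, 2 and 3, and 5.66 and 5.65 on the Upk2-CreERT2 arrays. All 3 basal-driver bladders lay above both luminal-driver bladders, by 1.12 ± 0.29 (SE; limma unadjusted p = 0.00119, adjusted p = 0.999).

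Cbx2, a subunit of a Polycomb complex that keeps developmental genes silent, read -1.22, -1.04 and -0.46 with Krt5-CreERT2, against -2.10 and -1.96 with Upk2-CreERT2. The groups did not overlap, and the difference was 1.12 ± 0.28 (SE). Reep6, of a family of endoplasmic reticulum membrane proteins, gave 3.03, 2.84 and 3.21 against 1.80 and 1.86, a difference of 1.20 ± 0.29 (SE) and the smallest unadjusted limma p on this side (0.000708). For Reep6 the gap between the drivers was wider than the spread within either of them, whereas for Cbx2 it was not wider than the spread of the Krt5-CreERT2 arrays.

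Cyp2e1, a cytochrome P450 that oxidises ethanol and small nitrosamines, was above background on all 3 Krt5-CreERT2 arrays, at 0.51, -0.35 and -0.15. On the Upk2-CreERT2 arrays it read -5.79 and -4.61 and was not well above background on either. Against the lowest signal that counts as above background there, it was at least 16.7-fold higher with Krt5-CreERT2 (adjusted p = 0.999). Fut1, a fucosyltransferase that makes the H blood-group sugar, was similarly seen only with Krt5-CreERT2, at 0.29, -3.89 and -1.36. Its bound was at least 5.31-fold, and its Krt5-CreERT2 arrays spread over more than 4 log2 units. Such bounds set the mean of all arrays of the bright group against that lowest countable signal. Cyp2e1 differed by 2.84 with R172H and by 0.50 without a mutant allele. Mup21, Mup1 and Serpina1d, genes of proteins that liver secretes, were picked after their values had been seen. They too were without overlap on this side, by 4.09, 3.41 and 3.07, and differed by 3.66, 3.08 and 1.97 with R172H. The source of these transcripts was not tested.

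Dbp, a clock-controlled transcription factor, read 4.33, 4.46 and 4.13 with Krt5-CreERT2 and 1.77 and 3.19 with Upk2-CreERT2, a difference of 1.82 ± 0.48 (SE). The 2 luminal-driver bladders were themselves well apart. Without a mutant allele Dbp differed by 1.58, at 3.35 and 4.54 against 2.34 and 2.39, and with R172H by -0.12. The other 4 of the 10 were Pdxp, a pyridoxal phosphatase, with a difference of 1.94, Shf, an SH2-domain adaptor (1.73), Zfp296, a zinc finger protein (1.43), and Stk26, a kinase (1.46). The slide 2 differences of these 10 genes ran from 0.81 for Stk26 to 5.05 for Cyp2e1.

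On the Upk2-CreERT2 side Rwdd3, which enhances the attachment of SUMO to proteins, had narrow groups. It read -2.73, -2.80 and -2.73 with Krt5-CreERT2 and -1.29 and -1.20 with Upk2-CreERT2. The 3 basal-driver bladders were nearly identical and lay well under both luminal-driver ones, with a difference of -1.51 ± 0.34 (SE; limma unadjusted p = 0.000354, adjusted p = 0.999).

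Ank, which carries pyrophosphate out of the cell and so restrains mineral deposits, gave 1.37, 1.46 and 1.51 against 2.70 and 2.70, a difference of -1.26 ± 0.34 (SE). Lipo3, a lipase of a cluster of similar genes, gave -3.40, -2.70 and -4.23 against -1.55 and -0.74, and its unadjusted limma p of 0.000294 was the smallest of all genes. Neither gene overlapped between the drivers. Whether other members of the lipase cluster contribute to the Lipo3 probe was not tested.

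Btc, which encodes betacellulin, a ligand of the EGF receptor, read -3.22, -3.85 and -3.37 with Krt5-CreERT2 and -0.47 and -2.11 with Upk2-CreERT2. The difference was -2.19 ± 0.54 (SE), and Upk2-CreERT2 replicate 1 was the highest of the 5. Hddc3, a phosphohydrolase, was not well above background on any Krt5-CreERT2 array (-4.02, -4.18 and -4.13) and was on both Upk2-CreERT2 arrays (-2.12 and -1.98), at least 3.28-fold higher there. Of the remaining genes, Zfp783, a zinc finger protein, differed by -2.53, Slc9a2, a sodium-proton exchanger, by -2.76, and Bbs7, a subunit of the complex that sorts cargo into cilia, by -1.32. Slc9a2 overlapped, since Krt5-CreERT2 replicate 2 at -3.43 lay above Upk2-CreERT2 replicate 2 at -3.61. The long noncoding RNA Cahm and the methyltransferase gene Mettl21c were not well above background on any Krt5-CreERT2 array, and their bounds were at least 1.08-fold and at least 1.20-fold higher with Upk2-CreERT2.

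**Figure D1:**
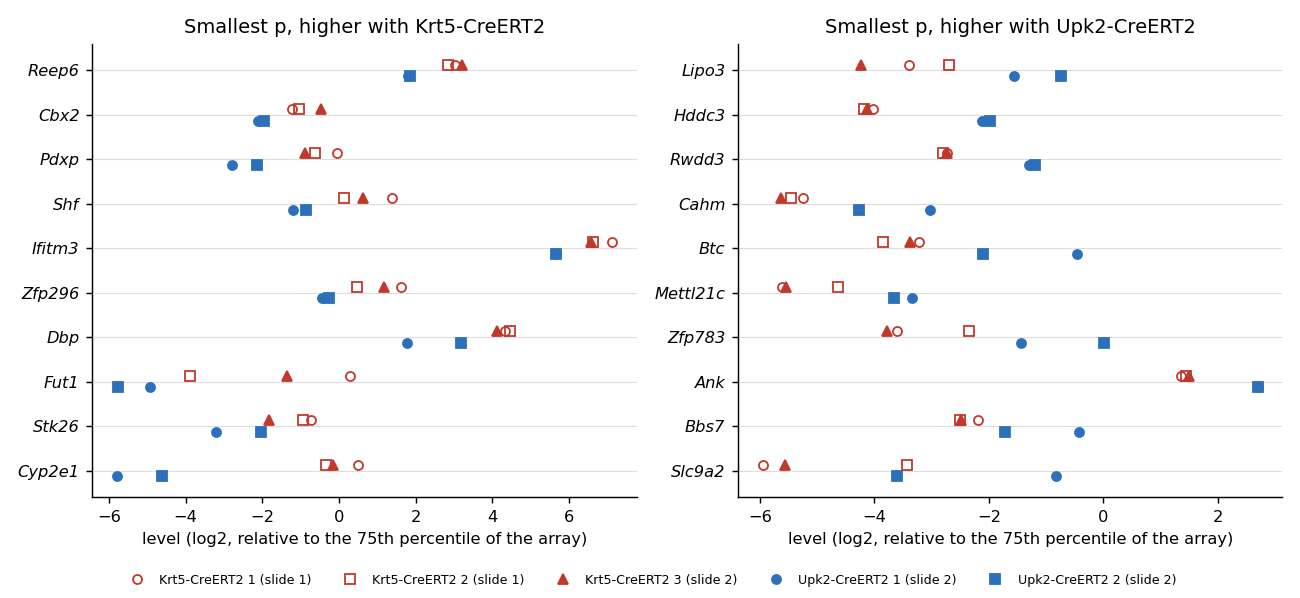
Levels on the 5 R270H arrays (x axis, log2 relative to the 75th percentile of the array) of the 10 genes of smallest p on each side; red marks are Krt5-CreERT2, blue marks Upk2-CreERT2, open marks slide 1 and filled marks slide 2. Red and blue are apart in every row except Slc9a2, and the narrowest groups are those of Rwdd3, Ank and Hddc3.

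The driver genes themselves and the p53 pathway came next. Krt5 read 8.56, 8.24 and 8.37 with Krt5-CreERT2 and 7.56 and 7.74 with Upk2-CreERT2. All 3 basal-driver bladders were above both others, by 0.74 (95% confidence interval -0.38 to 1.85), which limma did not separate from 0 (unadjusted p = 0.18, adjusted p = 0.999). Krt14, the usual partner of keratin 5, read 8.66, 8.07 and 8.66 against 8.02 and 8.19, so the groups overlapped, and the difference was 0.36 (-1.18 to 1.89). Upk2 read 0.12, 3.44 and -0.77 with Krt5-CreERT2 and 0.38 and 0.82 with Upk2-CreERT2. Its difference was 0.33 (-1.79 to 2.46) over the 5 arrays and -1.37 on slide 2, so its direction rested on Krt5-CreERT2 replicate 2. Without that array it was -0.92. A block for slide turned it to -1.34 if fixed and to -0.24 if random, and array weights gave -0.85.

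Trp53 read -1.46, -0.44 and -0.48 with Krt5-CreERT2 and -0.70 and -1.29 with Upk2-CreERT2. The groups overlapped, with a difference of 0.20 (-1.39 to 1.79). Cdkn1a, which encodes the cell cycle inhibitor p21 and is the best known p53 target, read 1.14, 3.38 and 2.16 against 2.27 and 1.67, a difference of 0.26 (-1.12 to 1.63). The lowest and the highest Cdkn1a level of the 5 were both in Krt5-CreERT2 bladders.

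The sequence just before the start of Krt5 is shown because that promoter set 1 of the 2 groups apart and because it holds letters of the kind p53 and p63 bind. It comes from the RefSeq promoter table for GRCm38.p6 and lies at chr15:101712931-101713060, minus strand, within the 250 bases upstream of the start. Capitals mark a p53-family half-site, from 95 to 86 bases before the start.
Krt5 upstream: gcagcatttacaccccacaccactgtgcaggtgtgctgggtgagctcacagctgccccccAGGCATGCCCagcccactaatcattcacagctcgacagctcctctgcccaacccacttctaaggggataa
A half-site of this kind, whose pattern is the same on both strands, was found in 7.13% of all 32851 upstream windows of 250 bases. Among the p53 targets listed below, 10 of 28 windows (35.7%) had a match. Counted by gene, it was 10 of the 21 with a window, beside 2216 of 27025 genes. A match is a description of letters, not a measured binding site.

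Of the 30 genes listed as p53 targets, 29 were tested and 0 were called. The difference was below 0 in 20 and above 0 in 9, with a median of -0.21 beside 0.05 for all genes. On slide 2 the median was 0.08, so the sign was not kept. Zmat3, an RNA-binding p53 target, read -0.50, -0.21 and 1.52 with Krt5-CreERT2 and 2.48 and 1.13 with Upk2-CreERT2, a difference of -1.53 ± 0.49 (SE; limma unadjusted p = 0.00649, adjusted p = 0.999). Its slide 2 difference was -0.28, the Krt5-CreERT2 array of slide 2 lying between the 2 Upk2-CreERT2 arrays. Gadd45a, a DNA damage sensor, differed by -0.79, Ddb2, a nucleotide excision repair factor, by 0.49, and Sesn2, a stress-induced restrainer of mTORC1, by 0.56. None of the 29 had non-overlapping groups at 2-fold, beside 2.33% of all genes higher with Krt5-CreERT2 and 1.82% lower, shares at which a list of this size would hold few such genes or none.

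Basal genes mostly had a higher mean with Krt5-CreERT2, without a call. All 23 listed basal urothelial genes were tested. The difference was above 0 in 16 (69.6%, beside 53.9% of all genes) and the median was 0.42. It was 0.72 on slide 2 and stayed above 0 in each of the settings listed in the closing section, between 0.12 and 0.72. Ngfr, the p75 neurotrophin receptor of basal cells, read 1.43, 0.51 and 1.52 against -0.91 and -0.84. The groups were far apart, by 2.03 ± 0.76 (SE; limma unadjusted p = 0.0168, adjusted p = 0.999). Ngfr is also on the nerve and Schwann cell list, whose median was 0.12 over the 5 arrays and -0.50 on slide 2.

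Sox15, a transcription factor of basal and squamous epithelia, read 0.83, 1.49 and 0.25 against -0.32 and -0.12, a difference of 1.08 ± 0.34 (SE). Krt17, a stress keratin, read 8.08, 6.68 and 7.30 against 6.27 and 6.05. Ngfr, Sox15 and Krt17 were the 3 of 23 basal genes without overlap at 2-fold, all higher with Krt5-CreERT2, beside 2.33% of all genes on that side. In that order they differed by -0.32, -0.20 and 0.52 with R172H. Without a mutant allele the differences were -0.84, -0.49 and -1.49. Bcam, a laminin receptor, differed by 0.99 and Egfr, the EGF receptor, by -0.79. Trp63, the defining transcription factor of basal cells, read 3.26, 1.30 and 3.37 against 2.38 and 3.17, and its groups overlapped. Krt17, Trp63 and the further genes of the plot of urothelial genes were added as defining markers after their values had been seen.

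Of the 30 squamous differentiation genes, 27 were tested, 19 lay above 0 and the median was 0.29, or 1.04 on slide 2. Its sign was not kept, since the median was -0.20 without Krt5-CreERT2 replicate 3, -0.32 without Upk2-CreERT2 replicate 1 and -0.028 when the labelled sex entered the fit. Krt78, an epidermal-type keratin, read 0.18, 1.36 and 0.77 against -2.61 and 0.34, and Ivl, a cornified envelope protein, -0.34, 2.45 and -0.09 against 1.30 and 2.74. They pointed in opposite directions, by 1.91 ± 1.07 and -1.35 ± 0.86 (SE). Lgals7, a galectin of stratified epithelia, differed by 1.001 and the envelope protein gene Sprr1a by 0.74. The squamous score of an array, the mean deviation of the list's genes from their 5-array means, was -0.38, -0.06 and 0.74 with Krt5-CreERT2 and -0.83 and 0.53 with Upk2-CreERT2. Each driver thus had a bladder with a high squamous score and at least 1 with a low score.

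Luminal genes gave no common direction. Of 30 listed, all were tested, 16 lay above 0 and 14 below, and the median was 0.07, or -0.22 on slide 2 and -0.12 without Krt5-CreERT2 replicate 2. Trpv4, a stretch-sensitive calcium channel, read 1.55, 2.89 and 2.48 against 1.23 and 0.37, and Cyp2f2, a cytochrome P450, read 3.09, 3.50 and 3.77 against 1.65 and 1.21. Sytl2, which helps dock vesicles at the plasma membrane, had the reverse order at -2.50, -1.26 and -3.20 against -0.22 and -0.52. These were the 3 of 30 luminal genes without overlap at 2-fold, 2 on the Krt5-CreERT2 side (2.33% of all genes) and 1 on the other (1.82%), with differences of 1.51 ± 0.52, 2.03 ± 0.88 and -1.95 ± 0.93 (SE), and all missed the threshold. Cdh1, encoding E-cadherin, differed by -0.82.

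Uroplakin levels varied within the drivers. Upk1a read 3.49, 4.38 and 1.47 with Krt5-CreERT2 and 2.56 and 4.10 with Upk2-CreERT2. Upk3a read 2.37, 0.24 and -4.54 against -5.62 and 0.68, and was not well above background in 1 bladder of each driver. Pparg, a regulator of luminal differentiation, read 0.70, 2.74 and -0.18 against 2.91 and 2.07, and Krt20, of superficial cells, 3.41, 3.72 and 2.14 against 4.89 and 2.83. Krt5-CreERT2 replicate 3 was the lowest of the 5 arrays for Upk1a, Upk2, Pparg and Krt20.

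**Figure D2:**
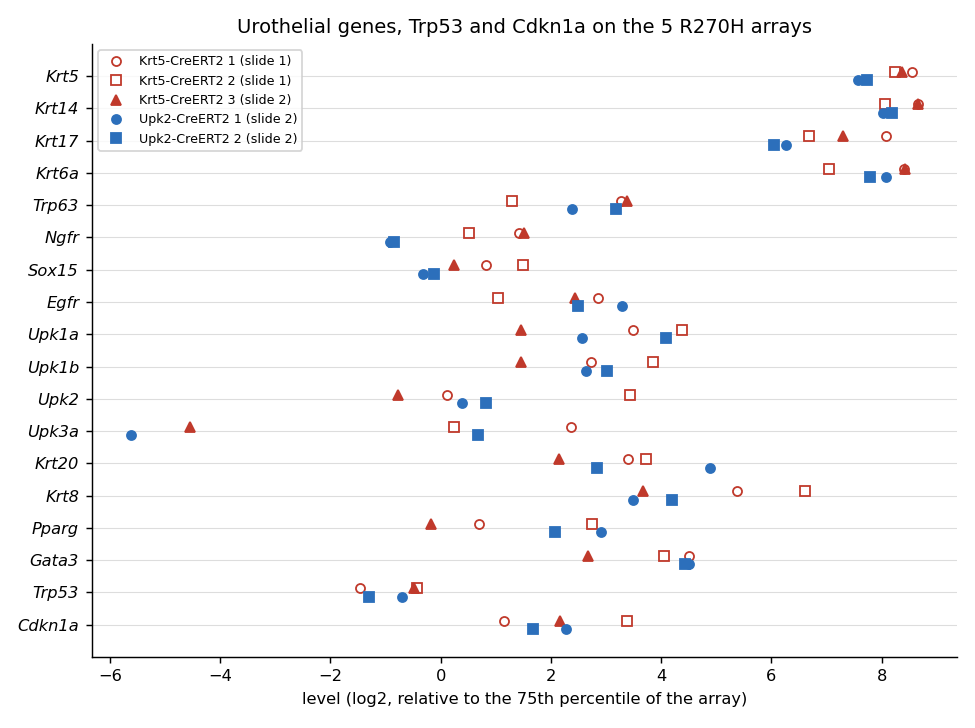
Levels of 18 urothelial genes, Trp53 and Cdkn1a among them, on the 5 R270H arrays (x axis, log2 relative to the 75th percentile of the array); red is Krt5-CreERT2, blue Upk2-CreERT2, open marks slide 1 and filled marks slide 2. Krt5, Krt17, Ngfr and Sox15 have every red mark to the right of both blue marks, while Upk3a spans from -5.62 to 2.37 with the drivers mixed.

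Genes of the NRF2 response mostly had a lower mean with Krt5-CreERT2, without a call. NRF2 is the transcription factor that switches on glutathione synthesis, thioredoxin reduction and detoxification when a cell meets oxidants or reactive chemicals. Of 20 listed NRF2 and xenobiotic genes, 19 were tested, 16 had a difference below 0 (84.2%, beside 46.1% of all genes) and the median was -0.76. On slide 2 it was -0.44, and over all settings tried it stayed between -0.998 and -0.39. By array the list score was -1.07, 0.31 and 0.14 with Krt5-CreERT2 against 0.40 and 0.23 with Upk2-CreERT2. The groups overlapped, and the low score of Krt5-CreERT2 replicate 1, the array labelled female, stood farthest from the rest.

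Txnrd1, the cytosolic thioredoxin reductase, read 2.96, 2.87 and 2.91 with Krt5-CreERT2 and 4.48 and 3.39 with Upk2-CreERT2. The 3 basal-driver bladders were alike and under both others, by -1.02 ± 0.32 (SE; limma unadjusted p = 0.00581, adjusted p = 0.999), and the slide 2 difference was also -1.02. Slc7a11, the cystine importer that feeds glutathione synthesis, read -2.98, -1.67 and -0.18 against 1.72 and 0.21, a difference of -2.58 ± 0.95 (SE). It did not overlap either, and Krt5-CreERT2 replicate 3 came close to Upk2-CreERT2 replicate 2. Gclc, the catalytic subunit of the first enzyme of glutathione synthesis, differed by -1.03, with 0.16 on slide 2, and Gclm, its modifier subunit, by -0.14. Cyp2f2, described above, belongs to this list too and went the other way.

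Short upstream sequences of Txnrd1 and Gclm are shown because, of the 16 NRF2-list genes with a RefSeq promoter window, these 2 held the core letters TGACNNNGC of the antioxidant response element that NRF2 binds, searched on both strands. The core was found in 10.2% of all 32851 windows, and in 10% of the 20 windows of this list. Capitals mark the match, which in both lies on the opposite strand and so is read as its reverse complement.
Txnrd1 upstream, chr10:82859064-82859172, plus strand, GRCm38.p6: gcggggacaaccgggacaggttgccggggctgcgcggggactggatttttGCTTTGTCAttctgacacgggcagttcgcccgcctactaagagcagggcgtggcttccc
Gclm upstream, chr3:122245373-122245481, plus strand, GRCm38.p6: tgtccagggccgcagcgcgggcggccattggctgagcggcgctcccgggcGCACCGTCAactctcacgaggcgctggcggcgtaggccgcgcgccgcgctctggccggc
The 2 genes with the core had unlike differences, -1.02 for Txnrd1 and -0.14 for Gclm, which read 2.59, 3.66 and 4.09 with Krt5-CreERT2 and 3.86 and 3.32 with Upk2-CreERT2. Gclm is named for this match, after its values had been seen.

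Glycolysis and hypoxia genes mostly had a higher mean with Krt5-CreERT2, again without a call. All 20 listed genes were tested, 15 lay above 0 and the median was 0.40, with 0.83 on slide 2. Pfkl, the liver-type phosphofructokinase that commits sugar to glycolysis, read 1.44, 1.80 and 2.09 against -0.09 and 0.93, a difference of 1.35 ± 0.47 (SE; limma unadjusted p = 0.011, adjusted p = 0.999). Car9, a carbonic anhydrase induced by low oxygen, read 0.85, -2.20 and 1.72 against -2.90 and -0.84. Pfkl had no overlap, whereas Car9 differed by more than 3 log2 units within the Krt5-CreERT2 group. Pkm and P4ha1, a pyruvate kinase and a collagen hydroxylase, differed by 0.72 and 0.70, and a second Pkm probe gave -0.71.

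EGFR ligands and receptors did not share a direction. Of 13 listed, 11 were tested, 6 lay above 0 and the median was 0.29. It fell below 0 without Krt5-CreERT2 replicate 1 (-0.21), Krt5-CreERT2 replicate 3 (-0.28) or Upk2-CreERT2 replicate 2 (-0.16). Beside Btc and Egfr, Erbb2, a partner receptor, differed by 0.61 and Areg, another ligand, by -0.85. Areg read 3.30, 1.85 and 2.05 against 4.39 and 2.10, so the size of its difference came from Upk2-CreERT2 replicate 1.

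Endothelial and blood genes had lower means with Krt5-CreERT2, without a call. Of 13 endothelial genes, all tested, 12 had a difference below 0 (92.3%, beside 46.1% of all genes), with a median of -1.24 and of -2.01 on slide 2. Leaving out 1 array at a time gave medians from -1.91 to -0.62. Esam, a junction adhesion molecule, read 0.91, 1.43 and 0.25 against 1.84 and 2.88, and Emcn, a sialomucin of capillaries and veins, 1.98, 3.21 and 1.77 against 3.31 and 4.26. Both were without overlap, by -1.50 ± 0.74 and -1.47 ± 0.79 (SE; limma adjusted p = 0.999 each). Cdh5, the endothelial cadherin, differed by -1.94 and overlapped, with Krt5-CreERT2 replicate 2 at 2.14 above Upk2-CreERT2 replicate 1 at 1.90. Flt1, a VEGF receptor, differed by -0.996.

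Of 8 blood genes listed, 7 were tested and all 7 had a difference below 0, with a median of -1.32. Hbb-bt, a beta globin, read 0.68, 6.11 and 2.92 against 4.75 and 8.07, and Alas2, the red-cell enzyme of haem synthesis, -3.93, 2.29 and -2.07 against -0.36 and 4.28. Hbb-b1 differed by -3.92 and Pf4, of platelets, by -1.32. The globin genes are near-identical copies that a probe may not tell apart. In each of these 4 genes Krt5-CreERT2 replicate 2 lay above Upk2-CreERT2 replicate 1, and Upk2-CreERT2 replicate 2 was the highest of the 5. The endothelial scores were -1.16, 1.08 and -1.31 against 0.10 and 1.28, beside blood scores of -3.10, 1.63 and -1.02 against 0.28 and 2.21. Upk2-CreERT2 replicate 2 and then Krt5-CreERT2 replicate 2 were highest in both, whereas the lowest array was Krt5-CreERT2 replicate 3 for endothelium and replicate 1 for blood. The part of blood content in the endothelial difference was not tested.

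Lymphocyte genes had higher means with Krt5-CreERT2 over the 5 arrays but not on slide 2. Of 21 T and B lymphocyte genes tested, 20 lay above 0, with a median of 0.996, whereas the slide 2 median was -0.54 and the median without Upk2-CreERT2 replicate 1 was -0.11. Ms4a1, which encodes the B-cell protein CD20, read -3.78, -2.39 and 0.57 with Krt5-CreERT2 and -5.74 and -6.56 with Upk2-CreERT2, where it was not well above background. It was above background on 2 of 3 Krt5-CreERT2 arrays and at least 4.58-fold higher with that driver (limma adjusted p = 0.999). With slide as a fixed block it was called, at an adjusted limma p of 0.00195. Cd79b, a part of the B-cell receptor, did not follow it, since it read -3.35 on Krt5-CreERT2 replicate 3, where Ms4a1 was highest. The T-cell receptor gene Cd3d read 0.99, 0.02 and -2.30 against -3.28 and -0.18. The lymphocyte score was 1.18, 0.84 and -0.84 against -1.67 and 0.50, high on the 2 slide 1 arrays.

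Plasma-cell genes lay above 0 in 5 of 6 tested, with a median of 1.19 and of 0.85 on slide 2. Sdc1, a syndecan of plasma cells that basal epithelium makes as well, read 4.33, 4.38 and 4.55 against 3.47 and 3.64. All 3 basal-driver bladders were above both others by 0.87 ± 0.31 (SE; limma unadjusted p = 0.012, adjusted p = 0.999), while other Sdc1 probes differed by -0.11 and 0.42. Jchain, which joins secreted antibodies, read -0.77, 3.35 and -2.18 against -4.34 and -1.97, and overlapped. Derl3, of the endoplasmic reticulum, read -3.36, -1.26 and -3.11 against -4.52 and -3.63, and Mzb1, a helper of antibody secretion, -3.70, -0.37 and -4.50 against -5.64 and -4.80. Mzb1 was at least 2.31-fold higher with Krt5-CreERT2 and was above background on 1 array, Krt5-CreERT2 replicate 2, which also had the highest level of Jchain and Derl3.

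Antigen presentation genes lay above 0 in 15 of 18, with a median of 0.42 but -0.51 on slide 2 and -0.71 without Upk2-CreERT2 replicate 1. The class II genes turned on a single array. Cd74, the class II chaperone, read 4.32, 5.90 and 2.86 against 0.40 and 4.76, and H2-Ab1 5.36, 6.12 and 4.72 against 1.80 and 6.01. In both, Upk2-CreERT2 replicate 1 was far below the other 4. Without it the differences of Cd74, H2-Ab1 and H2-Aa were -0.40, -0.61 and -1.15. Tapbp, which loads class I molecules, differed by 0.80 and by -0.16 on slide 2.

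Fat and skeletal muscle genes were high on the slide 1 arrays, both of them Krt5-CreERT2. Of 10 adipocyte genes, 9 lay above 0 with a median of 1.14, beside -0.04 on slide 2. Cfd, encoding adipsin, read 3.48 and 2.36 on Krt5-CreERT2 replicates 1 and 2 and -5.63 on replicate 3, against -5.30 and -6.80. Retn, Cidec and Adipoq, a hormone, a lipid-droplet protein and a second hormone of fat cells, were likewise above background on those 2 arrays and on no other of the 5. For skeletal muscle 11 of 12 lay above 0, with a median of 0.72, of 0.05 on slide 2 and of -0.41 with slide as a fixed block. Tnnt3, a fast troponin, read 2.29 and 2.08 on the slide 1 arrays and -2.42, -1.89 and 0.27 on slide 2, and the sarcomere genes Ttn and Myh1 were above background only on Krt5-CreERT2 replicate 1. Myh4, a fast myosin, read -6.05, -2.13 and -2.38 against -5.88 and -6.72, and so was seen on 1 slide 2 array too. With R172H the driver medians of these lists were also above 0, at 2.25 for adipocytes and 1.81 for skeletal muscle. Without a mutant allele they were 0.83 and 0.58. Cidec differed by 4.14 between the R172H arrays of slide 3. Cidec, Adipoq, Ttn, Myh1 and Myh4 were each above background on 1 of the 4 Krt5-CreERT2 R172H arrays. Whether slide or the tissue taken set the 2 slide 1 R270H arrays apart was not tested.

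**Figure D3:**
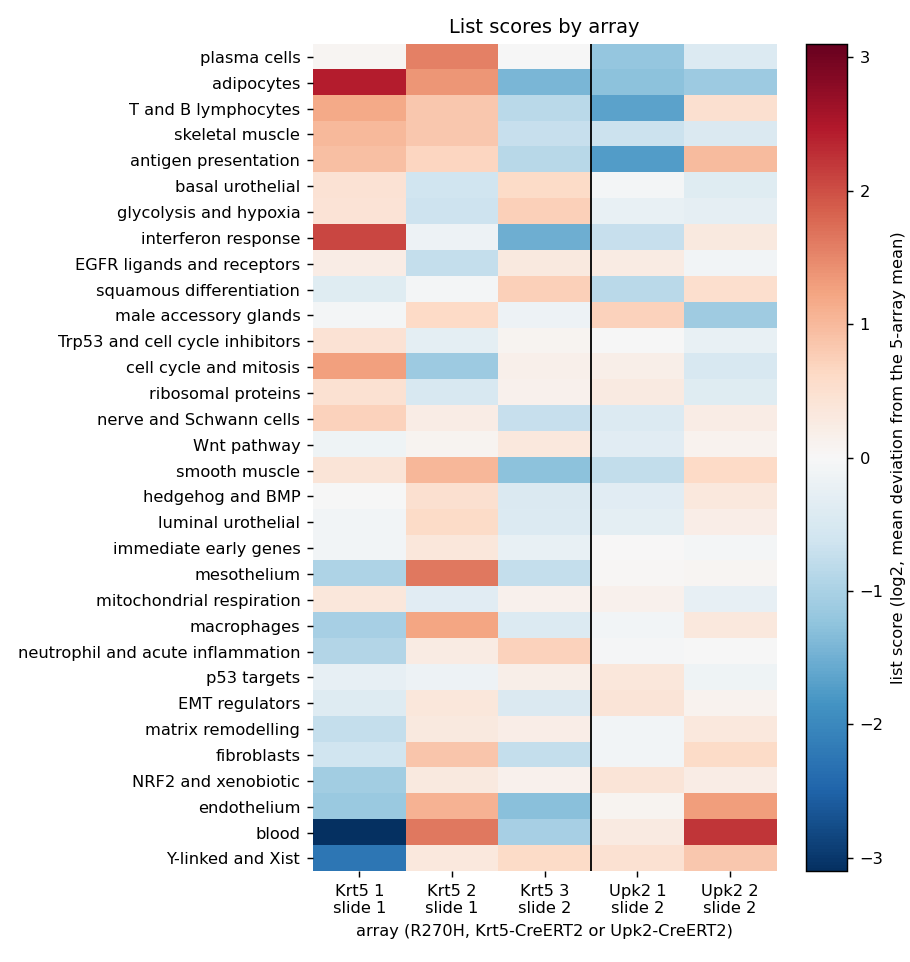
Scores of 32 gene lists (rows, ordered by their median difference) on the 5 R270H arrays (columns, with slide); colour is the mean deviation of the list's genes from their 5-array means in log2 units, red high and blue low. Adipocyte and skeletal muscle rows are red on the 2 slide 1 arrays alone, and blood runs from -3.10 on Krt5-CreERT2 replicate 1 to 2.21 on Upk2-CreERT2 replicate 2.

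Matrix remodelling genes were below 0 in 19 of 26, with a median of -0.40, which was 0.12 without Krt5-CreERT2 replicate 1. Mmp13, a collagenase, read 1.16, -2.14 and -0.31 against -3.33 and -1.40, while Lox, which cross-links collagen, read -2.003, 0.79 and 1.46 against 2.11 and 1.58. The 2 genes had opposite order, and both missed the threshold, as did Plaur, the urokinase receptor (-0.98), and Adamts4, an aggrecan-cleaving protease (-1.94). Of the remaining lists, fibroblast genes were below 0 in 12 of 15 tested with a median of -0.41, epithelial-mesenchymal transition regulators in 11 of 14 with -0.29, cell cycle and mitosis genes above 0 in 27 of 32 with 0.21, and interferon response genes above 0 in 17 of 22 with 0.38. The interferon score was 2.07 on Krt5-CreERT2 replicate 1 and -1.51 on replicate 3, and the slide 2 median of that list was -1.22. Without Krt5-CreERT2 replicate 1 it was -0.53, and without Upk2-CreERT2 replicate 1 it was -0.14. Mitotic genes had scores of 1.27 and -1.12 on Krt5-CreERT2 replicates 1 and 2, a wider range than between the drivers. Their median was -0.31 without Krt5-CreERT2 replicate 1 and -0.057 without Upk2-CreERT2 replicate 2, so its direction rested on these arrays. Over all 32 lists, with 528 of 559 genes tested, 0 members were called.

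**Figure D4:**
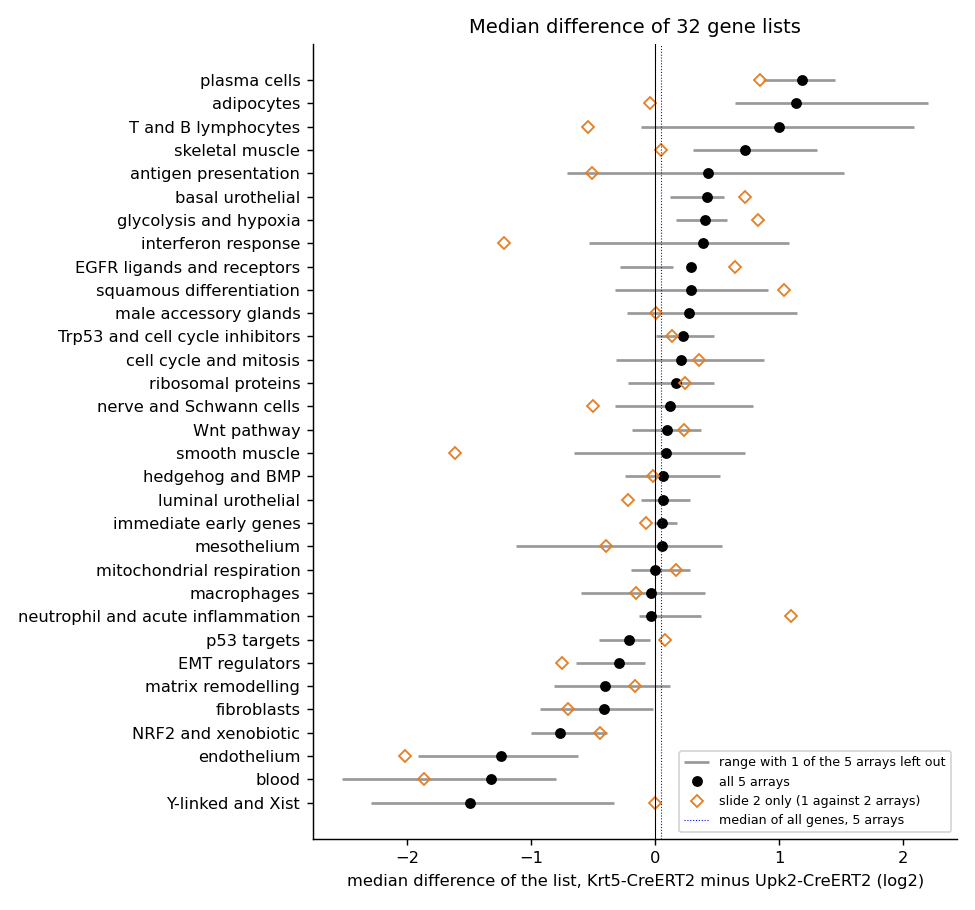
Median difference, Krt5-CreERT2 minus Upk2-CreERT2, in log2 units (x axis) for 32 gene lists; black points use all 5 arrays, orange diamonds slide 2 alone, and grey bars the range when 1 array is left out. Basal, glycolysis and plasma-cell lists lie to the right of 0 and NRF2, endothelial and blood lists to the left in all 3 readings, while lymphocytes, adipocytes and interferon genes change side on slide 2.

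The same driver comparison was then read with the R172H allele, on 7 arrays that share none with the R270H comparison. There too 0 genes were called in either direction (0% of 17404 each; limma, with 609 at an unadjusted p under 0.05, 2.74% above 0 and 0.764% below). Of the 406 genes higher with Krt5-CreERT2 without overlap, 304 (74.9%) had a difference of the same sign with R172H, beside 58.4% of all genes. Of the 316 higher with Upk2-CreERT2, 207 (65.5%) did, beside 41.6% of all genes. With R172H, as with R270H, the Krt5-CreERT2 arrays lay on more slides than the Upk2-CreERT2 ones, since 2 of the 4 Krt5-CreERT2 R172H arrays were on slide 2 and the other 2 on slide 3 with all 3 Upk2-CreERT2 R172H arrays. Slide 2 was read on scanner model G2505C and slide 3 on G2600D. Of the spots, 42.4% and 43.0% were well above background on the R172H arrays of slide 2, against 57.6% to 62.9% on those of slide 3. The lowest signals counted as above background were -2.69 and -2.75, against -5.81 to -5.00. The part of scanner in the shares over all 7 arrays, and in the counts for both alleles below, was not tested. Within slide 3 the shares were 53.9% of the 406, beside 50.6% of all genes, and 54.7% of the 316, beside 49.4%. With slide held constant, and with 2 fewer arrays, the shares were thus closer to those of all genes. Over all genes the 2 driver differences correlated at 0.30 (Pearson; Spearman 0.26), a description across genes.

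A gap with no overlap at 2-fold in both alleles was found for 25 genes on the Krt5-CreERT2 side, which is 6.16% of the 406 and 12.8% of the 196 such genes with R172H. Over all genes the R172H share on that side was 1.13%. On the Upk2-CreERT2 side it was found for 8 genes, 2.53% of the 316 and 12.9% of 62, beside 0.356% of all genes with R172H. The brighter R270H group was above background throughout for 7 of the 25, namely Serpina9, Fut1, Scx, Gpr20, Lrrc4, Pxylp1 and Olfr635, and for 7 of the 8. The 3 examples that follow were picked from these after their values had been seen. Scx, scleraxis, a tendon transcription factor, read -0.87, -0.96 and -0.65 against -2.43 and -2.24 with R270H, and between -1.65 and -0.22 against -2.85 to -2.74 with R172H. Hddc3, at least 3.28-fold higher with Upk2-CreERT2 in the R270H bladders, read between -4.86 and -3.42 against -1.94 to -1.24 with R172H, where it was above background on 2 of 4 Krt5-CreERT2 arrays and the adjusted limma p was 0.0928. Cxcr5, the follicle-homing chemokine receptor of lymphocytes, read -5.34, -3.57 and -5.65 against -2.51 and -1.73 with R270H. With R172H it was at least 5.81-fold higher with Upk2-CreERT2, none of the 4 Krt5-CreERT2 arrays being well above background. Without a mutant allele Cxcr5 did not overlap either, at -5.29 and -5.11 against -2.48 and -1.56, a difference of -3.18. Scx and Hddc3 differed there by 0.59 and 0.66. Sytl2, Rgs17, Foxr1, Robo3 and Slc6a2 made up the rest of the Upk2-CreERT2 side, besides a clone name. In that order they differed by 2.08, 0.09, -1.62, 0.45 and 1.49 without a mutant allele. All of these genes missed the threshold with R270H and with R172H.

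**Figure D5:**
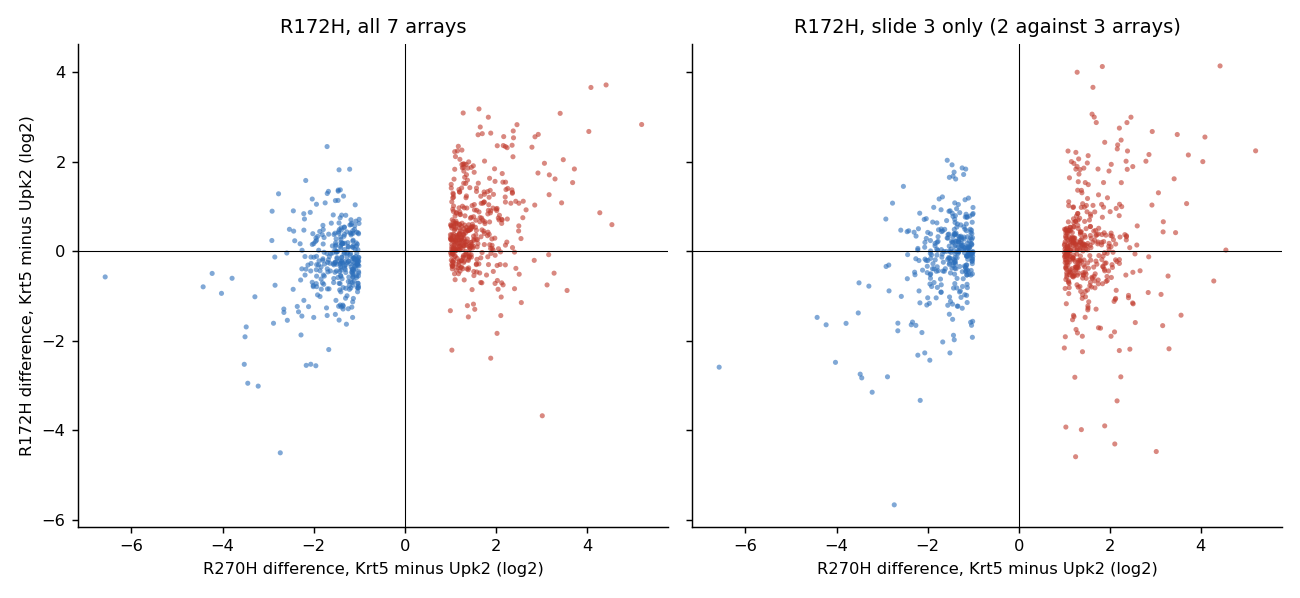
Driver difference with R172H (y axis, log2) against that with R270H (x axis, log2) for the 722 genes without overlap at 2-fold on the R270H arrays, each point 1 gene, red higher with Krt5-CreERT2 and blue higher with Upk2-CreERT2. In the left panel, over all 7 R172H arrays, 74.9% of red points lie above 0 and 65.5% of blue points below; in the right panel, within slide 3, the shares are 53.9% and 54.7%.

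The difference between the alleles in their driver difference was tested in the same fit, and 0 genes were called (limma; 0% of 17404 each way, 371 at an unadjusted p under 0.05, 0.925% above 0 and 1.21% below). The 5 genes of smallest p were Pisd-ps2, Olfr78, Gne, Cxcl17 and Rwdd3. Gne, the first enzyme of sialic acid synthesis, read 0.72, 0.87 and 0.78 with Krt5-CreERT2 and 0.31 and -0.18 with Upk2-CreERT2, a difference of 0.73, against -0.74 with R172H. Its difference of differences was 1.46 ± 0.38 (SE; limma adjusted p = 0.9998). Cxcl17, a mucosal chemokine, was above background on all 3 Krt5-CreERT2 R270H arrays and neither Upk2-CreERT2 one, at least 5.06-fold higher, while with R172H its difference was -3.68. Rwdd3 had 0.14 with R172H, a difference of differences of -1.66 ± 0.44 (SE). Olfr78, an odorant receptor gene, and the pseudogene Pisd-ps2 were each above background on 1 of the 5 arrays.

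Against the driver difference without a mutant allele, 0 genes were called as well (limma; 0% of 17404 each way, 754 at an unadjusted p under 0.05, 2.34% above 0 and 1.99% below). The genes of smallest p were Lipo3, Cbx2, Gxylt2, Ifitm3 and Rwdd3. Without a mutant allele Cbx2 and Ifitm3 had differences of -1.05 and -0.84, opposite to 1.12 and 1.12 with R270H. Their differences of differences were 2.17 ± 0.42 (SE; limma adjusted p = 0.605) and 1.96 ± 0.42 (SE; limma adjusted p = 0.621). Lipo3 and Rwdd3 had 1.77 and 0.80 without a mutant allele, and differences of differences of -4.07 ± 0.75 and -2.31 ± 0.50 (SE). Gxylt2, a xylosyltransferase that extends sugars on Notch, had -0.42 with R270H, and without a mutant allele it was at least 4.31-fold higher with Krt5-CreERT2, being not well above background on either Upk2-CreERT2 array. In the driver comparison without a mutant allele 0 genes were called, and 2.19% of genes lay above 0 and 1.4% below at an unadjusted limma p under 0.05. It rests on 2 arrays per driver, of which the Upk2-CreERT2 pair may be 1 mouse. Of the 406 genes, 56.7% shared the sign without a mutant allele (49.98% of all genes), and of the 316, 33.9% did (50.02% of all genes).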

How the data were processed

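Spot intensities were deposited as Agilent Feature Extraction 11.0.1.1 output, background-subtracted and detrended per the file headers; the submitters' processing notes name version 9.1 and limma. The deposited table holds log2 values normalized by the authors and served as an alternative. For each array log2 of the processed signal minus its 75th percentile was taken, flagged spots (61 to 301 on the 5 arrays) were dropped and spots of a probe averaged. Of 56605 probes, 32994 matched 1 symbol of the RefSeq GRCm38.p6 table, 0 several and 23611 none. The brightest probe stood for each of 22911 genes. After 18 genes with a flagged value were removed, 17404 remained that were well above background on at least 2 of 22 arrays. limma 3.58.1 in R 4.3.3 fitted 8 group means over all 22 arrays, with Benjamini-Hochberg adjustment, called at or under 0.05. The number of arrays limits the precision, and p-values measure the spread between these samples. The fit was tested on simulated data. Tables and plots were made with matplotlib 3.10.9, pandas 2.3.3 and numpy 2.4.6 under Python 3.11.15.

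Members and lists were chosen with earlier results of these data known. A rule chose the genes to name. Cdkn1a, Krt5, Krt14, Trp53 and Upk2 were always included. For each direction came the 10 called genes of largest change or, where none was called, those with the smallest p, provided they were above background throughout the brighter group and had no clone or predicted name. Each list gave at most 4 genes, and each difference of differences 5, again by smallest p. A gene that this rule names is not reported here. Alternatives were normexp background correction (offset 50), quantile normalization, the deposited table, 3 filters, the mean over probes, fewer arrays in the fit, slide as a block or held constant, the replicate number, the sex label, shared animal codes, array weights, and each array left out. Using only the 2 slides of the same scanner model was added after seeing the data.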

Additional observations from a re-analysis of the deposited data

How the results depend on the processing

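The driver comparison called 0 genes in all settings except 2. With slide as a fixed block 2 genes were called, Krt90 and Ms4a1, and these 2 were also called in the difference between alleles. Leaving out 1 array gave 0 to 3 called genes (3 without Upk2-CreERT2 replicate 2, namely Igfl3, Scg2 and Wdr63) and 0 to 1 for the difference between alleles (Olfr78, without Upk2-CreERT2 replicate 1). The genes without overlap at 2-fold, 722 in the report, numbered 327 with normexp, 314 in the deposited table, 203 with detection on all 22 arrays, 2839 within slide 2 and 1338 to 2344 with 1 array left out, where fewer arrays make overlap rarer by construction. Genes at an unadjusted p under 0.05, 689 in the report, ran from 321 with only the 5 arrays fitted to 1253 without Krt5-CreERT2 replicate 2, and numbered 1248 without Krt5-CreERT2 replicate 3. The median of all genes, 0.05 in the report, ran from -0.02 without Upk2-CreERT2 replicate 2 to 0.18 with no filter, and was 0.15 with normexp. Deviations of the same replicate number from the group means correlated at 0.02 and 0.25. These values cannot show whether the numbers pair the mice, because the deviations of the 2 Upk2-CreERT2 arrays mirror each other. With the replicate block 0 genes were called. Of 86 named genes, 70 kept their sign in all settings that gave a value, and in the driver comparison Ms4a1 was the 1 of them called in any. Signs turned as follows, for causes that were not tested. With normexp Cahm was 0.023, Olfr78 0.084 and Gxylt2 0.12, and in the deposited table Gxylt2 was 0.54. With the mean over probes Cdkn1a was -0.056. With slide as a fixed block Upk2 was -1.34 and Tnnt3 -0.66, with array weights they were -0.85 and -0.50, and with a random slide block Upk2 was -0.24. Within slide 2 Upk2 was -1.37, Tapbp -0.16, Cd79b -0.52, Cd3d -0.57, Adipoq -0.22, Tnnt3 -1.61 and Gclc 0.16. With 1 array left out, values ran from -0.92 to 1.18 for Upk2, -0.32 to 0.80 for Cdkn1a and -0.98 to 0.037 for Gxylt2 (lowest without Krt5-CreERT2 replicate 2 for Upk2 and Cdkn1a, highest without replicate 1 for Gxylt2). They ran from -0.40 to 3.96 for Cd74, -0.61 to 3.60 for H2-Ab1, -1.15 to 4.30 for H2-Aa, -0.25 to 2.85 for Cd3d and -1.99 to 0.30 for Areg, each turning without Upk2-CreERT2 replicate 1, and from -0.096 to 0.53 for Trp53, turning without Upk2-CreERT2 replicate 2. Of 32 list medians, 9 kept their sign in all settings (basal, Trp53 and cell cycle inhibitors, glycolysis, plasma cells, NRF2, endothelium, blood, fibroblasts and epithelial-mesenchymal transition regulators). In that order, the driver medians with R172H were 0.33, 0.15, -0.06, 0.44, -0.22, -0.42, -0.79, -0.22 and 0.03. Without a mutant allele they were -0.04, 0.01, -0.79, 0.45, 0.41, 0.32, 2.14, 0.95 and 0.56. A sign kept over the settings was thus not always kept in the other driver comparisons. With detection on all 22 arrays the plasma-cell median was 0.22 and the adipocyte median -0.59. The number of arrays limits every comparison here, and the R270H driver comparison, and those built on it, have a single slide that holds both drivers.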

Other observations

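Dbp led to a look at other clock genes, chosen after its values had been seen. Of 16 core clock and clock-output genes tested, 1, Dbp, was without overlap at 2-fold, and 1 had an unadjusted limma p under 0.05, beside 2.33% and 1.82% of all genes without overlap and 2.26% and 1.7% at that p, higher and lower with Krt5-CreERT2. Hlf, a relative of Dbp that binds the same kind of site, read -0.88, -0.80 and -1.41 with Krt5-CreERT2 and -1.94 and -2.0003 with Upk2-CreERT2, so its groups did not overlap either, with a difference of 0.94. Tef, the third member of that family, read 4.69, 3.74 and 4.22 against 4.36 and 4.35, so its groups overlapped. The repressor genes Per1, Per2 and Per3 differed by -0.11, 0.33 and -0.08, and Arntl, the partner of Clock, by -0.10. Of the 15 clock genes other than Dbp, 8 lay above 0, as Dbp did, and 7 below.

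Some genes were high in a single bladder. Scg2, which encodes a secretory granule protein of neuroendocrine cells, read 3.52 on Upk2-CreERT2 replicate 1 and between -4.78 and -3.75 on the other 4 R270H arrays. Igfl3, of a family of small secreted proteins, read 2.75 on the same array and at most -5.63 elsewhere. Krt90, a keratin gene, read 0.95 on Krt5-CreERT2 replicate 3 and at most -2.89 on the others. These genes were picked out after their values had been seen, because alternatives called them.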
